A study of Mus musculus with 6 samples.

Results

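The JAK kinases and STAT factors are the core of a pathway that carries signals of cytokines and hormones from the cell surface to the nucleus. Here 9 of their genes were followed: the kinases Jak1, Jak2 and Tyk2 and the factors Stat2, Stat3, Stat4, Stat5a, Stat5b and Stat6. The members were the probe sets whose only gene symbol in the platform annotation is 1 of these names. Each gene had 1 such probe set, so 9 probe sets of 35557, or 9 genes of 19938, were described. The probe set of Jak3 also carries the symbol Insl3 and was not used.

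RNA came from tibialis anterior, a muscle of the lower leg, of mice aged 11 weeks that had been starved for 6 h. One group is control C57Bl6J mice (3 arrays) and the other is MLC-SOCS-3/C57Bl6J mice (3 arrays), which carry a SOCS-3 transgene. The labels do not spell out MLC, name the promoter or the founder line, or say whether each array is a separate animal. Tests therefore measure only how these samples spread, and that spread may be technical. Values are log2 RMA intensities, 1 per probe set and array.

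A cytokine receptor has no kinase of its own and relies on JAKs bound to its inner part. Binding of the ligand lets the JAKs phosphorylate each other, the receptor and then STAT proteins, which pair up, enter the nucleus and bind DNA. SOCS proteins are made in response and shut the signal down, SOCS-3 mainly at receptors that share the chain gp130 and at the leptin receptor. In skeletal muscle, STAT3 is best known downstream of interleukin 6 and related cytokines, and STAT5 downstream of growth hormone.

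To show what lies before the starts of the genes that the description turns on, the 250 bases upstream of 3 starts are printed, from RefSeq on GRCm38.p6. The table held 12 such windows for the 9 genes. Capitals mark matches, on either strand, to a STAT-type palindrome with a spacer of 3 (TTCNNNGAA) or 4 (TTCNNNNGAA) or to an interferon-response type element (GAAANNGAAA). Stat3 is shown as the gene with the largest difference between the groups over all 6 arrays, and Stat2 and Stat4 as the 2 genes with a match.
Stat3 (chr11:100939541-100939790, minus strand): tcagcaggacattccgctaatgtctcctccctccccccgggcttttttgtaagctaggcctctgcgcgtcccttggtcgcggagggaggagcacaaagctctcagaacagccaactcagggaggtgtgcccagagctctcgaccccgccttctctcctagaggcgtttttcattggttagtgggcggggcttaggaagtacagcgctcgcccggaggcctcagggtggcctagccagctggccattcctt
Stat2 (chr10:128270248-128270497, plus strand): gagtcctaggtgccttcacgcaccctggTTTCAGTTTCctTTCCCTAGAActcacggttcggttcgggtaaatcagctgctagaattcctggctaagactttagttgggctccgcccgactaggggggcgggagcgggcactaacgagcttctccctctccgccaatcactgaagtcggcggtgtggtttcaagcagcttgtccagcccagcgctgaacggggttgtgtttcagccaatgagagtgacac
Stat4, downstream start (chr1:52007990-52008239, plus strand): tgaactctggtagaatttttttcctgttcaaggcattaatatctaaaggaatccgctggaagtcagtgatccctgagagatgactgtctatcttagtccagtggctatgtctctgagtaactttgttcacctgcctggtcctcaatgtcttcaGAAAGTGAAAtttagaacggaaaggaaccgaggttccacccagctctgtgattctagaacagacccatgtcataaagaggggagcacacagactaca

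The palindrome with a spacer of 3 was in none of the 12 windows, against 7.02% of 32851 windows of all genes. The one with a spacer of 4 was in 1 window, that of Stat2, as TTCCCTAGAA (5.85% of all windows). The interferon-type element was in 2, as TTTCAGTTTC in Stat2 and GAAAGTGAAA in Stat4 (2.98% of all windows). In Stat2 both matches lie side by side without overlap, 222 to 213 and 210 to 201 bases before the start. A match is a run of letters only, and its absence says only that these letters are not in the window.

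The transgene's own gene was looked at first, since it bears on the labels. Socs3 read 7.37, 7.41 and 7.43 on the control arrays and 7.07, 7.12 and 7.25 on the arrays labelled MLC-SOCS-3, and was thus lower rather than higher there. Its second probe set also differed by -0.22 ± 0.08 (SE). Whether the transgene contains the stretch that these probes read is not stated, so it is not known whether these values bear on the labels, and directions are given for arrays as labelled. With limma, 0 probe sets (0%) were called over the whole table (adjusted p threshold 0.05), and 2105 had p under 0.05 before adjustment. The genes that define skeletal muscle were bright on every array: all 15 fibre genes examined, such as the actin Acta1 and the creatine kinase Ckm, lay above the median probe set (5.99).

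None of the 9 JAK and STAT genes passed limma's test over all probe sets. Stat3 was the gene with separated groups: each array labelled MLC-SOCS-3 lay below each control, with a mean difference of -0.30 on the log2 scale. The other 8 genes overlapped between the groups. Of the kinases, Jak2 was slightly positive and Jak1 and Tyk2 slightly negative. Of the factors, 3 were positive and 3 negative, with Stat5b furthest up and Stat3 furthest down over all 6 arrays. In all, 4 genes were positive and 5 negative, with Jak1 turning positive when arrays were centred on their medians.

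These counts are too few to be told apart from the background. At an unadjusted p under 0.05 there was 1 of the 9, Stat3, where 4.86% of all genes reached that level. The same gene was the only one whose groups did not overlap with the labelled arrays lower, which held for 7.76% of all genes. None of the 9 was separated with the labelled arrays higher, against 4.52% of all genes. With 9 genes, a single one is no sign that the family as a whole differs from the background. The median difference over the 9 was -0.01, beside -0.02 over all 19938 genes. Of all 19938 genes, 11210 were negative, which is the background for every count of signs given here. Among genes with an unadjusted p under 0.05 (limma), 698 were lower and 271 higher on the labelled arrays.

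**Figure D1:**
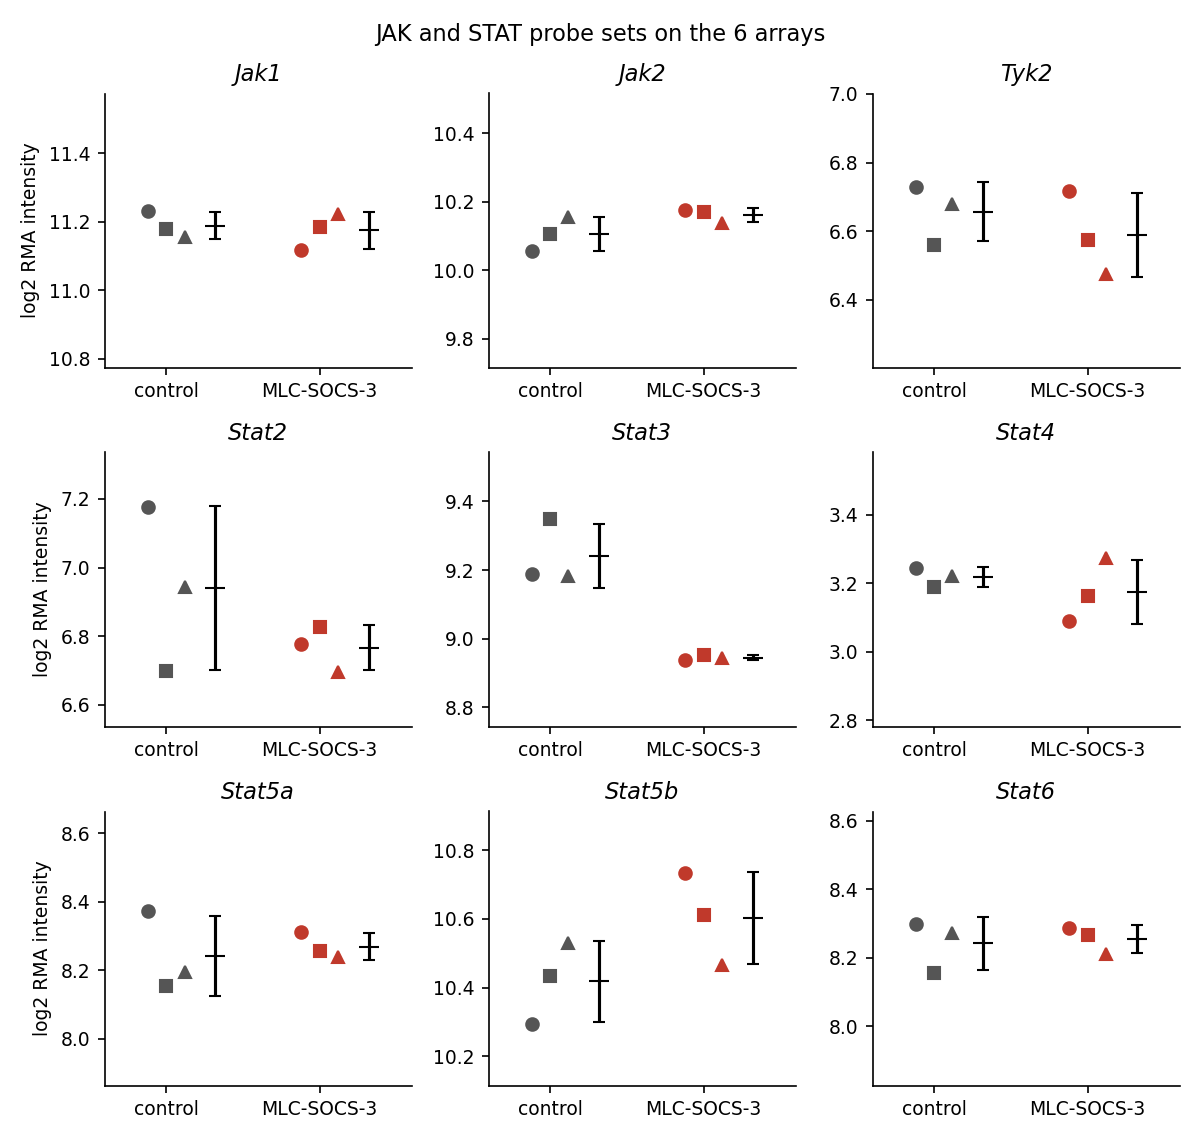
Log2 RMA intensity (vertical axis, 0.8 units tall in each panel) of the 9 genes on 3 control arrays (grey) and 3 arrays labelled MLC-SOCS-3 (red). Circles, squares and triangles are replicates 1, 2 and 3, and black bars show mean and SD. The groups are apart for Stat3, with 8.94 to 8.95 against 9.18 to 9.35, and overlap in the other panels.

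The kinase genes came first in the order of signalling, and none of them was separated. Jak1 encodes the kinase bound to gp130, interferon and common gamma chain receptors. It read 11.23, 11.18 and 11.15 on the control arrays and 11.12, 11.19 and 11.22 on the arrays labelled MLC-SOCS-3. These values interleave within a range of 0.12. The difference was -0.01 ± 0.06 (SE, limma, adjusted p = 0.98), with a 95% interval from 0.89-fold to 1.10-fold.

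Jak2 encodes the kinase that serves the growth hormone, erythropoietin and leptin receptors. It read 10.06, 10.11 and 10.16 on the control arrays and 10.18, 10.17 and 10.14 on the labelled ones. Only control replicate 3 reached into the labelled group, and the labelled arrays lay within 0.04 of each other. The difference was 0.06 ± 0.06 (SE, limma, adjusted p = 0.91), with a 95% interval from 0.94-fold to 1.15-fold. It ranged from 0.030, without control replicate 1, to 0.080 when 1 array was left out. The smallest p that an exact permutation test of 3 against 3 arrays can give is 0.1, and Jak2 had p = 0.2 (two-sided).

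Tyk2 encodes the kinase paired with Jak1 or Jak2 at the receptors of type I interferon and interleukin 12. Its probe set lay 0.63 above the median probe set, so its folds are more compressed than those of bright ones. It read 6.73, 6.56 and 6.68 on the control arrays and 6.72, 6.57 and 6.47 on the labelled ones. Both groups spread over a similar span and only MLC-SOCS-3 replicate 3 lay below every control. The difference was -0.07 ± 0.09 (SE, limma, adjusted p = 0.92), with an interval from 0.82-fold to 1.11-fold. It was -0.010 without MLC-SOCS-3 replicate 3 and -0.13 without MLC-SOCS-3 replicate 1.

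Within each array, the log ratio of Jak1 to Jak2 removes a shift common to the whole array. It was 1.18, 1.07 and 0.9995 on the control arrays and 0.94, 1.02 and 1.08 on the labelled ones, so the groups overlapped here too. The size of this ratio depends on the probes and does not say which kinase has more RNA.

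Stat3 encodes the factor that mediates signals of interleukin 6, leukaemia inhibitory factor and leptin, the receptors at which SOCS-3 acts. It read 9.19, 9.35 and 9.18 on the control arrays and 8.94, 8.95 and 8.94 on the labelled ones. The labelled arrays covered a range of 0.014, with the highest of them 0.23 below the nearest control. Control replicate 2 was the highest of the 6. Without it the difference was -0.24, and Stat2, at -0.29, was then further down than Stat3.

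The means were 9.24 ± 0.09 (SD, n = 3) in controls and 8.94 ± 0.01 (SD, n = 3) in the labelled group. The difference of -0.30 ± 0.07 (SE) is a 1.23-fold lower intensity, with a 95% interval from 0.72-fold to 0.92-fold. It did not pass over all probe sets (limma, adjusted p = 0.79, unadjusted p = 0.0059), and it ranked 264 of 35557 by p. The exact permutation test gave p = 0.1 (two-sided), the smallest it can give. A difference of this size or larger was found in 3.72% of all genes, and in 2.12% of the 11409 genes above the median probe set. In whole muscle, fewer cells of a type and less Stat3 RNA per cell cannot be told apart.

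The STAT5 genes had overlapping groups. Stat5b, a main carrier of the growth hormone signal, read 10.29, 10.43 and 10.53 on the control arrays and 10.73, 10.61 and 10.47 on the labelled ones. MLC-SOCS-3 replicates 1 and 2 were above every control, while replicate 3 lay inside the control range. The difference was 0.19 ± 0.10 (SE, limma, adjusted p = 0.86), with a 95% interval from 0.96-fold to 1.35-fold. This 1.14-fold difference ranged from 0.12 to 0.25 on the log2 scale when 1 array was left out, with 0.12 without either MLC-SOCS-3 replicate 1 or control replicate 1.

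Stat5a, its close relative known best from prolactin signalling in the mammary gland, read 8.37, 8.15 and 8.20 on the control arrays. The labelled arrays read 8.31, 8.26 and 8.24, all within the control range. The difference was 0.03 ± 0.08 (SE, limma, adjusted p = 0.97), with an interval from 0.89-fold to 1.17-fold. The log ratio of Stat5a to Stat5b within each array was -1.92, -2.28 and -2.33 in controls and -2.42, -2.36 and -2.23 in the labelled group. Control replicate 1, where Stat5a was highest and Stat5b lowest among the controls, stood apart from the other 5.

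Stat5b, Stat5a and Stat3 are consecutive protein-coding genes on chromosome 11 in the GRCm38.p6 gene table. In that order their differences were 0.19, 0.03 and -0.30, and the groups of the first pair overlapped. The log ratio of Stat3 to Stat5b within each array was -1.10, -1.08 and -1.35 in controls. It was -1.80, -1.66 and -1.52 in the labelled group, below every control. This ratio joins the lowest and the highest difference of the 9, so its separation follows from the values above and adds no evidence to them.

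**Figure D2:**
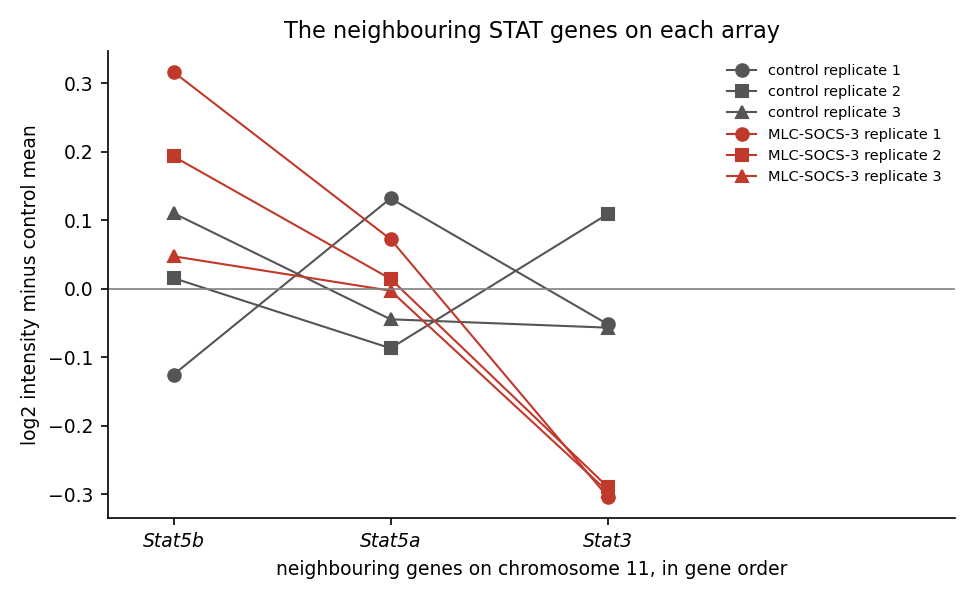
Log2 intensity minus the mean of the 3 controls (vertical axis) for 3 neighbouring genes, in gene order, with 1 line per array (grey control, red labelled MLC-SOCS-3). The labelled arrays sit between 0.05 and 0.32 for Stat5b, spread around 0 for Stat5a, and meet between -0.30 and -0.29 for Stat3.

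Stat2 encodes the factor that joins IRF9 in the interferon response. Its probe set lay 0.86 above the median probe set, so its folds, like those of Tyk2, are more compressed than those of bright ones. It read 7.18, 6.70 and 6.94 on the control arrays and 6.78, 6.83 and 6.70 on the labelled ones. The controls covered 0.48 and enclosed almost the whole labelled group, which covered 0.13. The spread within groups was larger than for 89.3% of the genes above the median probe set. The difference was -0.17 ± 0.13 (SE, limma, adjusted p = 0.87), with a 95% interval from 0.71-fold to 1.10-fold. It shrank to -0.06 without control replicate 1 and grew to -0.29 without control replicate 2. Stat2 was 1 of the 2 genes with an interferon-type element before its start, shown among the sequences above.

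Stat6 encodes the factor of interleukin 4 and 13 signalling. It read 8.30, 8.15 and 8.27 on the control arrays and 8.29, 8.27 and 8.21 on the labelled ones, all inside the control range. Its difference of 0.01 ± 0.07 (SE, limma, adjusted p = 0.98) was the smallest of the 9. The interval ran from 0.90-fold to 1.13-fold.

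Stat4, which acts downstream of interleukin 12 in T and natural killer cells, was the only member below the median probe set, at -2.80 relative to it. It read 3.25, 3.19 and 3.22 on the control arrays and 3.09, 3.16 and 3.27 on the labelled ones. The labelled arrays spanned a wider range, on both sides of the controls. The difference was -0.04 ± 0.07 (SE, limma, adjusted p = 0.94). Folds of so dim a probe set are compressed, so its interval from 0.86-fold to 1.10-fold limits the intensity and not the RNA. Of the 12 lymphocyte markers measured, 11 also lay below the median probe set. Among them, the T cell receptor gene Cd3g read 4.07 ± 0.10 (SD, n = 3) in controls and 3.76 ± 0.11 (SD, n = 3) in the labelled group. Cd3d and Cd3e, of the same receptor, did not follow it. Their differences were 0.05 ± 0.14 and 0.02 ± 0.19 (SE), with overlapping groups, so Cd3g does not stand for T cells. Of the 12 markers, 4 were positive and 8 negative, 2 of the latter at an unadjusted p under 0.05 (limma).

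**Figure D3:**
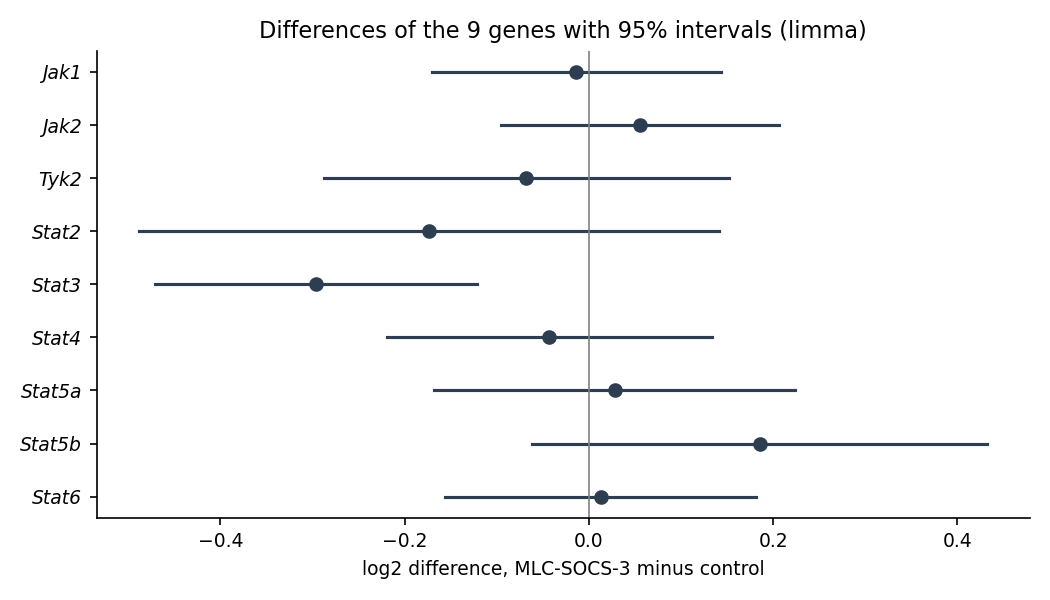
Log2 difference, MLC-SOCS-3 minus control (horizontal axis), of the 9 genes, with points for limma's estimate and bars for the 95% interval. The interval of Stat3 runs from -0.47 to -0.12 and the other 8 cross 0.

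Differences within groups were shared by several members. Among the controls, replicate 1 was the highest and replicate 2 the lowest for 5 of the 9 genes, namely Tyk2, Stat2, Stat4, Stat5a and Stat6. Stat3 ran the other way on control replicate 2, where it was highest. In the labelled group, replicate 1 was the highest for 5 genes, among them Jak2 and Stat5b, and the lowest for 3, Jak1, Stat3 and Stat4. These are differences between single arrays, which have no replicate of their own. The share of all genes in the same order was not computed, so the order is not shown to be particular to these 9. Control replicate 1 also had the highest median of the 6 arrays, 6.04.

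Some markers of other cells moved with the labelled group in which Stat3 was lower. The mean log2 level of the 7 adipocyte genes measured, of 8 listed, was 7.44 to 7.56 in controls and 7.67 to 7.81 in the labelled group, with all 7 differences positive. Summed on the linear scale, these genes ranged from 14374 to 17008 in controls and from 16379 to 17096 in the labelled group. Car3, at 13.59 to 13.85 in controls and 13.76 to 13.86 in the labelled group, was by far the brightest. It lay among the fibre genes in brightness and makes up most of the sum, which says little about the rest. Adipoq, 1 of the 3 below the median probe set, was the 1 gene of the 7 at an unadjusted p under 0.05 (limma). It read 5.28, 5.34 and 5.25 on the control arrays and 6.04, 5.99 and 5.74 on the labelled ones. Adipoq and Retn were separated, and the groups of the rest overlapped. The mean of the 12 lymphocyte genes, of 13 listed, was 4.52 to 4.63 against 4.37 to 4.51, with sums of 315 to 352 against 285 to 328. These groups were barely apart, and 4 of the genes were positive and 8 negative. The mean of the 5 Schwann cell genes, of 8 listed, was 6.67 to 6.70 against 6.59 to 6.63, with sums of 942 to 982 against 905 to 972. All 5 were negative. The mean of the 15 fibre genes was 13.8111 to 13.8573 against 13.78 to 13.8104, so the groups only just missed overlapping. Of these genes 3 were positive and 12 negative, and their sums overlapped, with 236929 to 240505 against 232535 to 239011. The means of the other lists overlapped between the groups, although some leaned one way. Of the fibroblast genes 8 of 8 were positive (median 0.13), of the slow fibre genes 7 of 7 negative (median -0.13), and of the macrophage genes 11 of 15 positive (median 0.08), 3 of them at an unadjusted p under 0.05. The endothelial list was 4 positive and 6 negative, the satellite cell list 1 and 4, and the blood list 1 and 1. The arrays give no zero, so no marker can be said to be absent, and the part of these cells in the Stat3 result was not tested.

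Among the genes whose values ran most like those of Stat3 over the 6 arrays was Rapsn, which clusters acetylcholine receptors at the neuromuscular synapse. Pearson's r was 0.988 for Rapsn, 0.984 for the proton-sensing receptor Gpr4 and 0.984 for the secreted binding protein Igfbp7. With the group means removed the values were 0.933, 0.868 and 0.888. These are descriptions over 6 arrays that share 1 processing, picked from 11012 genes, of which 91 had r above 0.9. The differences of the 3 genes were -0.15, -0.19 and -0.06.

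The rest of the pathway was read from lists arranged by role. Of its other genes, 90 were measured, and limma called none of them in either direction over all probe sets. At an unadjusted p under 0.05, 3 were positive and 4 negative, beside 4.86% of all genes. Of the 90, 40 were positive and 50 negative, with a median of -0.01, beside 11210 negative of all 19938 genes.

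Among receptor chains upstream of JAKs, 12 of 20 were positive, with a median of 0.02. Not every chain in this list binds a JAK itself. Cntfr, the ligand-binding chain of the ciliary neurotrophic factor receptor, which signals through gp130 and STAT3, was furthest up. It read 7.50, 7.77 and 7.57 on the control arrays and 7.999, 8.76 and 8.65 on the labelled ones. The groups did not overlap, and the difference was 0.86 ± 0.21 (SE, limma, adjusted p = 0.80). The erythropoietin receptor gene Epor was at -0.24 ± 0.10 (SE) and Csf2rb, the common beta chain of interleukin 3 receptors, at 0.27 ± 0.13. Both are among the 5 of the 20 chains below the median probe set.

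Among the 18 inhibitors of the pathway, 10 were negative, and the mean over the list was lower on all 3 labelled arrays (7.81 to 7.92) than on the controls (8.02 to 8.03). Cish and Socs2, both induced by STAT5, weigh on that mean. Cish read 8.18, 7.82 and 7.85 on the control arrays and 6.12, 6.49 and 7.15 on the labelled ones. Socs2 read 7.79, 7.74 and 8.30 against 6.63, 6.88 and 6.88. Both were separated between the groups, unlike Stat5a and Stat5b. Neither passed the test over all probe sets (limma, adjusted p = 0.73 and 0.69, unadjusted p = 0.0021 and 0.00048). Its second probe set put Socs2 at -0.38 ± 0.11 (SE). The list's median was -0.04.

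The adaptors and partners gave 8 of 10 negative, with a median of -0.08. Stam2, an adaptor of receptor sorting, was at -0.13 ± 0.06 (SE), its relative Stam at -0.09 ± 0.07 and the coactivator Ep300 at 0.13 ± 0.07. All 3 missed the unadjusted level of 0.05.

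Targets were grouped by the factor best known to drive them, although most answer to several. For STAT3, 8 of 17 were positive and 9 negative, with a median of -0.02. Bcl3, a partner of NF-kappaB, read 6.62, 6.56 and 6.49 on the control arrays and 6.26, 6.39 and 6.29 on the labelled ones. It was separated between the groups, with a difference of -0.24 ± 0.07 (SE, limma, adjusted p = 0.80). Hif1a, the factor of the response to low oxygen, was at 0.18 ± 0.08 and Junb, an immediate-early gene, at -0.30 ± 0.13.

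For STAT5, 7 of 8 targets were negative, with a median of -0.10, and none of these 8 reached an unadjusted p under 0.05. Negative differences were also the majority over all genes, with 11210 of 19938. The list leaves out Cish and Socs2, also induced by STAT5, which were counted among the inhibitors. Both were negative with an unadjusted p under 0.05. The repressor Bcl6 was at -0.38 ± 0.17 (SE), Onecut1 at -0.15 ± 0.09 and Igfals, which carries IGF in blood, at -0.22 ± 0.15. Onecut1 was the 1 target of the 8 below the median probe set. Bcl6 read 9.91, 9.23 and 9.55 on the controls and 9.10 to 9.24 on the labelled arrays, so control replicate 2 lay inside the labelled group.

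For STAT2 with interferon, 6 of 12 were positive, with a median of 0.00, and 7 lay below the median probe set. Oas1a, an antiviral enzyme, was at 0.64 ± 0.20 (SE), while Mx1 was at -0.17 ± 0.08 and the factor Irf1 at -0.21 ± 0.10. Oas1a and Mx1 are among those 7. Oas1a read 4.87 on control replicate 1, where Stat2 was highest, and 5.42 and 5.67 on the other controls. On the labelled arrays it read 5.91, 5.96 and 6.00, above every control (limma, unadjusted p = 0.019, adjusted p = 0.81). Mx1 and Irf1 were separated the other way, with the labelled arrays lower. Mx1 had means of 3.42 in controls and 3.24 in the labelled group, as dim as Stat4. Its difference therefore describes the intensity and not the RNA. For STAT6, 4 of 6 were positive, with a median of 0.09, and 3 lay below the median probe set, Ccl17 among them. Ccl17, a chemokine, was at 0.23 ± 0.10, Retnla, a product of alternatively activated macrophages, at 0.39 ± 0.27 and Ccl24 at -0.13 ± 0.09.

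**Figure D4:**
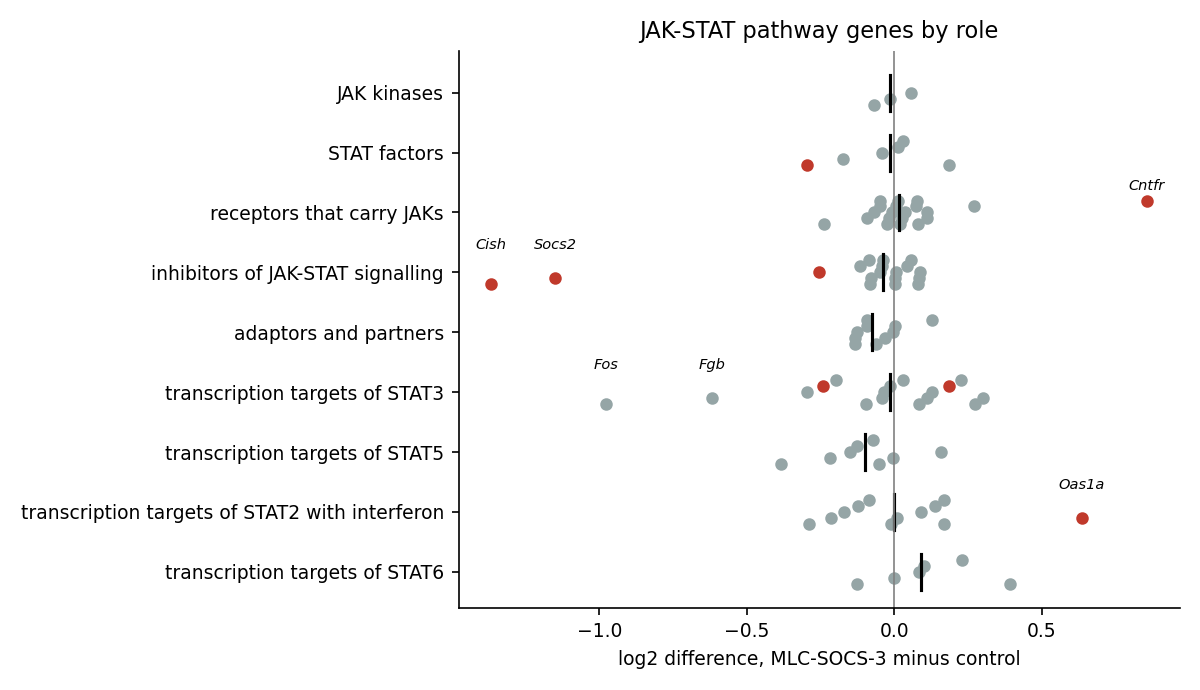
Log2 difference, MLC-SOCS-3 minus control (horizontal axis), of each measured gene by role. The row of receptors that carry JAKs includes chains, such as Cntfr, that do not bind a JAK themselves. Red points have an unadjusted p under 0.05 and grey points do not, black bars are medians, vertical offsets within a row only separate points, and genes beyond 0.6 are named. Cish and Socs2 lie furthest left and Cntfr furthest right, while the JAK and STAT points stay within 0.30 of 0.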

How the data were processed

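The deposited values are log2 intensities. Per the submitters' processing notes, the authors used RMA and Affymetrix Expression Console, without a version. RMA subtracts background, equalises the arrays and summarises the probes of a set, so single probes cannot be inspected and dim folds are compressed. The table has no detection calls. Array medians lay between 5.98 and 6.04, at most 36 values were identical between any 2 arrays, and the number of arrays limits the precision.

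The platform annotation can be old. It names 23410 probe sets: 21789 have 1 symbol, 1621 have several, and 12147 more are unnamed here. Other genes used their brightest probe set. Groups were compared with limma 3.58.1 in R 4.3.3 (lmFit, eBayes, two-sided) over all 35557 probe sets, with Benjamini-Hochberg adjustment at 0.05. Differences are MLC-SOCS-3 minus control. Scripts were tested on simulated data. The members and lists were chosen with earlier results of these data known. Named besides the members were up to 3 genes per list with the smallest p, and the 3 genes most correlated with the member of smallest p. Acta1, Ckm, Cd3g, Cd3d, Cd3e, Adipoq, Car3 and Fabp4 were chosen after their values were seen.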

Additional observations from a re-analysis of the deposited data

How the results depend on the processing

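No member was called under any of the 14 alternatives, which were median centring, quantile normalization, a level filter, trend with robust moderation, listed probe sets, 1 probe set per gene, the replicate block, the added setting and 6 fits without 1 array. Stat3 stayed negative, from -0.32 to -0.24, with an unadjusted p between 0.00052 and 0.020. The replicate block gave 0 called probe sets and Stat3 at -0.30 (limma, adjusted p = 0.86). Same-numbered arrays did not deviate together (r from -0.04 to -0.02), so the numbers are not taken as pairs. Over all features, 1 was called with 1 probe set per gene, and 11 with listed probe sets, trend and robust moderation, a setting added after seeing the data. There, 2 members had an unadjusted p under 0.05, as Stat5b joined Stat3. Leaving out 1 array gave 0 to 1 called probe sets and 1 to 2 members at that level, the second being Stat2 without control replicate 2.

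Jak1 turned to 0.0059 with median centring. Without 1 array, Jak1 ranged from -0.038 to 0.016, Stat4 from -0.092 to 9.4e-05, Stat5a from -0.016 to 0.094 and Stat6 from -0.031 to 0.041, so their signs carry no weight. The cause was not tested. Stat4 was not in the fit above the median level. The mean of several probe sets was not run, since each member has 1. Signal over background limits Stat4 and, less so, Tyk2 and Stat2.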
